A study of Mus musculus with 47 samples.

Results

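Described here are 44 genes that dividing cells use to enter, carry out and leave mitosis, taken from a list of symbols out of the 45706 genes in the deposited tables. Transcript counts were summed per gene, and all 44 genes passed the filter on low counts in each comparison except iCdh23 against iMcam with dox, where 43 did. C2C12 is a mouse myoblast line that grows in serum-rich medium and, once serum is withdrawn, leaves the cell cycle and fuses into multinucleated myotubes. The C2C12 iMyoD1 line carries its endogenous MyoD1 gene plus a doxycycline (dox)-inducible Halo-MyoD1 transgene, and the iMcam and iCdh23 lines carry inducible Mcam and Cdh23, which encode cell adhesion proteins. The transgenes were inserted with a PiggyBac vector under the TRE3GS promoter, so every line, vehicle cultures included, holds a transgene. No line without a transgene was analysed here, so an effect of dox itself cannot be told apart from that of the transgene.

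RNA was sequenced from 47 libraries in 16 groups, each group with 3 biological replicates except the myoblast-enriched fraction with dox, which had 2. iMyoD1 cultures were taken in growth medium after 24 h with 1 µg/mL dox or vehicle (called 0 h), and after 24, 48 and 120 h of serum withdrawal with dox or vehicle from its onset. At 120 h, iMyoD1 cultures were also passed through a 40 µm strainer, which gave a myoblast-enriched flow-through and a myotube-enriched retentate. iMcam and iCdh23 cultures were taken at 48 h with dox or vehicle.

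Cyclin-dependent kinase 1 with cyclin B drives a cell into mitosis, and Polo and Aurora kinases act beside it. Kinetochores then tie chromosomes to the spindle, the spindle checkpoint holds anaphase back until each chromosome is attached, and the anaphase-promoting complex with Cdc20 releases that hold by marking securin and cyclin B for destruction. The mRNAs of many of these proteins peak in G2 and mitosis under the MuvB, B-Myb and FoxM1 factors, which act on promoters with a CHR element (TTTGAA), often next to CCAAT boxes. Myoblasts stop making these mRNAs as they leave the cell cycle to fuse, since myotube nuclei do not divide.

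Total counts per library ran from 15066338 to 50950674, with a median of 22837926, and the lowest count of any of the 44 genes in any library was 4. Levels below are in CPM, a gene's count relative to its library's total, with TMM scaling over all 47 libraries, and p-values come from edgeR's quasi-likelihood test with Benjamini-Hochberg adjustment over all genes tested. A gene was called when its adjusted p was below 0.05 and its fold change above 2. The summed level of 8 myotube markers was at most 15.3 CPM in the 0 and 24 h libraries and at least 4317 CPM in the vehicle libraries of 48 and 120 h, while macrophage and endothelial markers summed to at most 16.6 and 0.929 CPM (Adgre1 was at 0 in 43 of 47 libraries). In iMyoD1 whole cultures Myod1 was on average at 177.5 CPM with vehicle and 188 with dox at 0 h, 135 and 117 at 24 h, 388 and 306 at 48 h, and 280 and 92.0 at 120 h. It was thus called higher with dox at none of these time points and lower at 120 h (−1.62 ± 0.13, adjusted p = 1.32e-05). Whether the Halo-MyoD1 transcript is counted under this gene was not tested, so Myod1 does not check the dox labels, and directions in iMyoD1 follow the labels. In iMyoD1 at 48 h, Cdh23 was on average at 9.36 CPM with vehicle and 19.6 CPM with dox. Mcam was at 12.6 and 24.0 CPM there, and the libraries overlapped for neither gene. Both are among the adhesion genes that the paper selected as upregulated by dox. The other times were not checked in this way. In iCdh23 cultures Cdh23 was already at 369.6, 347.7 and 450.6 CPM with vehicle and at 568.1, 425.7 and 464.2 CPM with dox, against a mean of 7.73 CPM in iMcam vehicle cultures. Mcam in iMcam cultures was at 18.1 CPM with vehicle and 71.3 CPM with dox on average. With vehicle and dox, Mcam was also at 6.28 and 49.1 CPM in iCdh23, and Cdh23 at 7.73 and 51.2 CPM in iMcam, so neither difference was particular to the line with that transgene.

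The promoter sequences were examined first, since the 44 genes move together. Promoters from 250 bases before to 50 after the start were available from RefSeq (build GRCm38.p6) for 36 of the 44 genes in 38 windows. The CHR letters TTTGAA, on either strand, stood in 28 of the 36 genes (30 of 38 windows), against 17.9% of all 32851 windows of that length. From 120 bases before to 50 after the start, the same 30 of 38 windows held a match, against 9.31% of all windows. CCAAT, on either strand, stood in 27 of the 36 genes against 37.4% of all windows, and 24 genes held both. The E-box CAGCTG, the letters that MyoD1 binds, stood in 3 of the 36 genes against 16.3% of all windows. The 120 bases before the start are shown for 5 genes with the CHR letters (a mitotic kinase, a topoisomerase, an activator and a ubiquitin carrier of the anaphase-promoting complex and a spindle motor) and for Bub1, which lacks them. Capitals mark TTTGAA and CCAAT on either strand.
Cdk1, chr10:69352913-69353032, minus strand: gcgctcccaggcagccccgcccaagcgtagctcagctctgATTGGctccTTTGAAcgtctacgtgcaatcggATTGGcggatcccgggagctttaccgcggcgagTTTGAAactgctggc
Top2a, chr11:99024190-99024309, minus strand: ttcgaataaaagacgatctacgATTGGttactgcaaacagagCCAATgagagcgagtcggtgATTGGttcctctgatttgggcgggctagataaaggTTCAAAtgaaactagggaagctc
Cdc20, chr4:118437344-118437463, minus strand: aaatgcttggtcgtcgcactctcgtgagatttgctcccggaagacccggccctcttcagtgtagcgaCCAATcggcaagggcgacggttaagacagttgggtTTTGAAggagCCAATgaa
Ube2c, chr2:164769809-164769928, plus strand: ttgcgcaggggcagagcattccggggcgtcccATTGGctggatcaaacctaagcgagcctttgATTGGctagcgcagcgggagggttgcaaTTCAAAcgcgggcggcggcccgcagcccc
Kif11, chr19:37376262-37376381, plus strand: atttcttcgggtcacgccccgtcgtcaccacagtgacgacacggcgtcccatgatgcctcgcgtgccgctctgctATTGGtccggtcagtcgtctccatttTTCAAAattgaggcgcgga
Bub1, chr2:127831860-127831979, minus strand: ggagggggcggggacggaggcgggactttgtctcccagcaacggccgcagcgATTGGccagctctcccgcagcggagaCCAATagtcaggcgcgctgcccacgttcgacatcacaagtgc

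Cdk1 shows TTTGAA once near the start and once further out, with CCAAT letters on the opposite strand before each, while the Top2a, Ube2c and Kif11 matches read as TTCAAA on the printed strand. Bub1 shows CCAAT letters alone. The 8 genes without CHR letters were Birc5, Bub1, Ccnb1, Cenpe, Mad2l1, Nuf2, Nusap1 and Pttg1. Their median log2 change with dox at 48 h was close to that of the 28 genes with the letters in each line, at −1.80 against −1.84 in iMyoD1, −2.85 against −2.997 in iMcam and −4.62 against −4.85 in iCdh23. No match says only that these letters are not in this window.

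The summed level of the 44 genes was highest in growth medium and lowest in iCdh23 cultures with dox. In iMyoD1 vehicle libraries it was 7647, 7696 and 7610 CPM at 0 h, 2210, 2095 and 2114 CPM at 24 h, 3700, 3656 and 3686 CPM at 48 h and 706.5, 807.2 and 713.2 CPM at 120 h. With dox it was 6735, 6822 and 6652 CPM at 0 h, 2120, 2103 and 2136 CPM at 24 h, 1081, 1116 and 1132 CPM at 48 h and 1269, 1160 and 1146 CPM at 120 h. Of these whole cultures, dox and vehicle libraries overlapped at 24 h alone, and dox stood above vehicle at 120 h alone. The 3 dox libraries of iMcam summed to 386.2, 217.3 and 394.6 CPM and those of iCdh23 to 143.4, 102.9 and 156.1 CPM, all below the 1981 to 3185 CPM of the vehicle libraries of these lines. All 44 genes had their lowest group mean in iCdh23 with dox and their highest at 0 h (43 with vehicle and 1 with dox). As a share of all counts the 44 genes took 0.791% ± 0.004 (SD, n = 3) in growth medium with vehicle and 0.0164% ± 0.0036 (SD, n = 3) in iCdh23 with dox. In these bulk samples, fewer dividing cells and less of these mRNAs per cell cannot be told apart.

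**Figure D1:**
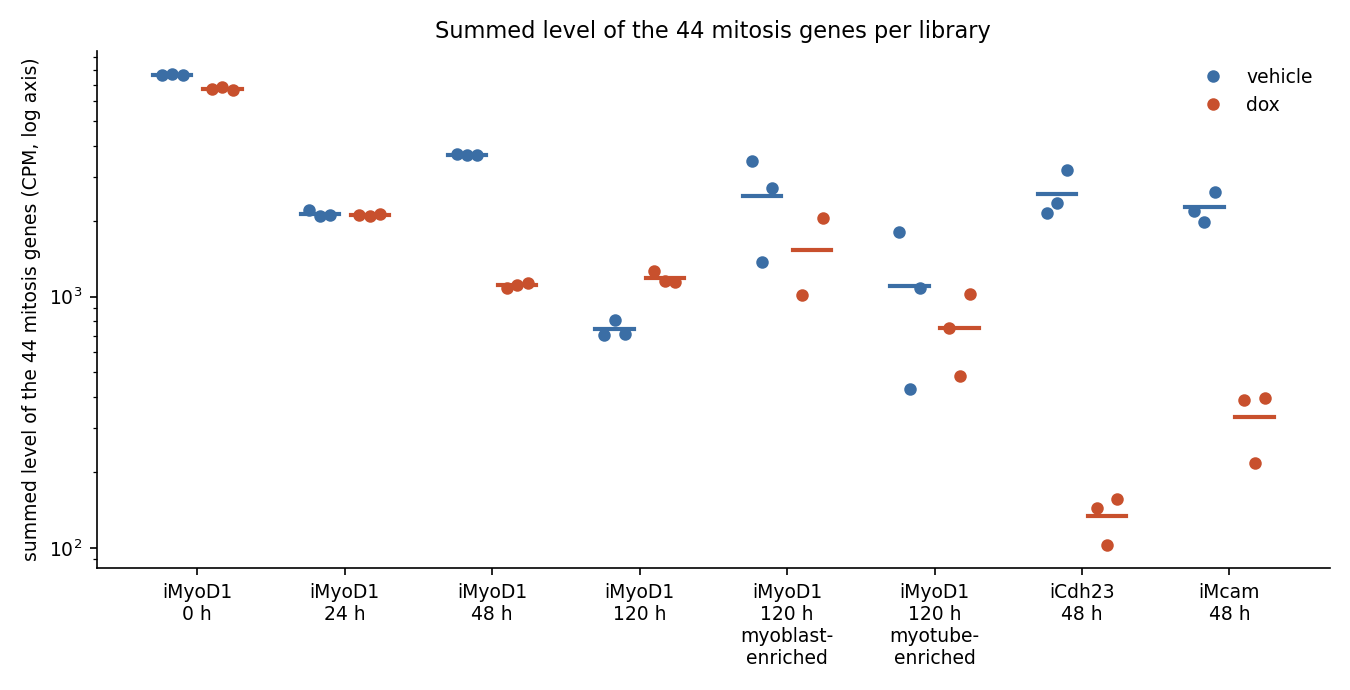
Summed level of the 44 mitosis genes in CPM on a log axis, 1 point per library and a bar at the mean of each of the 16 groups, vehicle and dox side by side. At 48 h every dox library of the 3 lines lies below every vehicle library, with ratios of the means of 3.32 in iMyoD1, 6.82 in iMcam and 19.1 in iCdh23, while at 120 h the iMyoD1 whole cultures with dox lie 1.61-fold above vehicle.

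At 48 h of differentiation, every gene of the list was lower with dox in all 3 lines. In iMyoD1 44 of 44 fell, against 8.46% of all 13871 genes tested, with a median log2 change of −1.78 (3.44-fold lower) and a range from −2.19 for Cenpf to −1.26 for Cdk1. In iMcam 44 of 44 fell, against 9.85% of all genes, with a median of −2.95 (7.72-fold lower) and a range from −3.30 for Cdc25c and −3.29 for Birc5 to −1.84 for Incenp and −1.79 for Racgap1. In iCdh23 44 of 44 fell, against 17.0% of all genes, with a median of −4.78 (27.4-fold lower) and a range from −5.90 for Hmmr and −5.84 for Bub1 to −2.64 for Racgap1 and −2.51 for Incenp. For each of the 44 genes, no dox library reached the level of any vehicle library of its line. The highest adjusted p over the list was 3.36e-05 in iMyoD1, 0.000949 in iMcam and 7.79e-05 in iCdh23, and the median over all genes tested was between 0.00 and 0.02 in size. Myotube markers fell in the same comparisons (7 of 8 in iMyoD1, 8 of 8 in iMcam and in iCdh23, medians −1.29, −2.69 and −6.50), and of 5 myoblast markers 0, 3 and 4 fell. Of 5 fibroblast markers (Col1a1, Pdgfra, Dcn, Lum and Thy1), whose sum was 9.14 to 1647 CPM over all libraries, 1 of the 4 tested fell in iMyoD1, 1 of 4 in iMcam and 3 of 3 in iCdh23. DESeq2 called 1 of these 5 markers lower in iMyoD1, 1 higher and 1 lower in iMcam, and 4 lower in iCdh23, so they did not all move alike. Their sum was 975.6 to 1078 CPM with vehicle and 249.6 to 275.1 CPM with dox in iMyoD1, 438.0 to 1110 against 126.8 to 159.4 CPM in iMcam, and 316.9 to 830.6 against 40.9 to 63.5 CPM in iCdh23. The part of cell type shares in the mitosis genes' change was not tested.

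**Figure D2:**
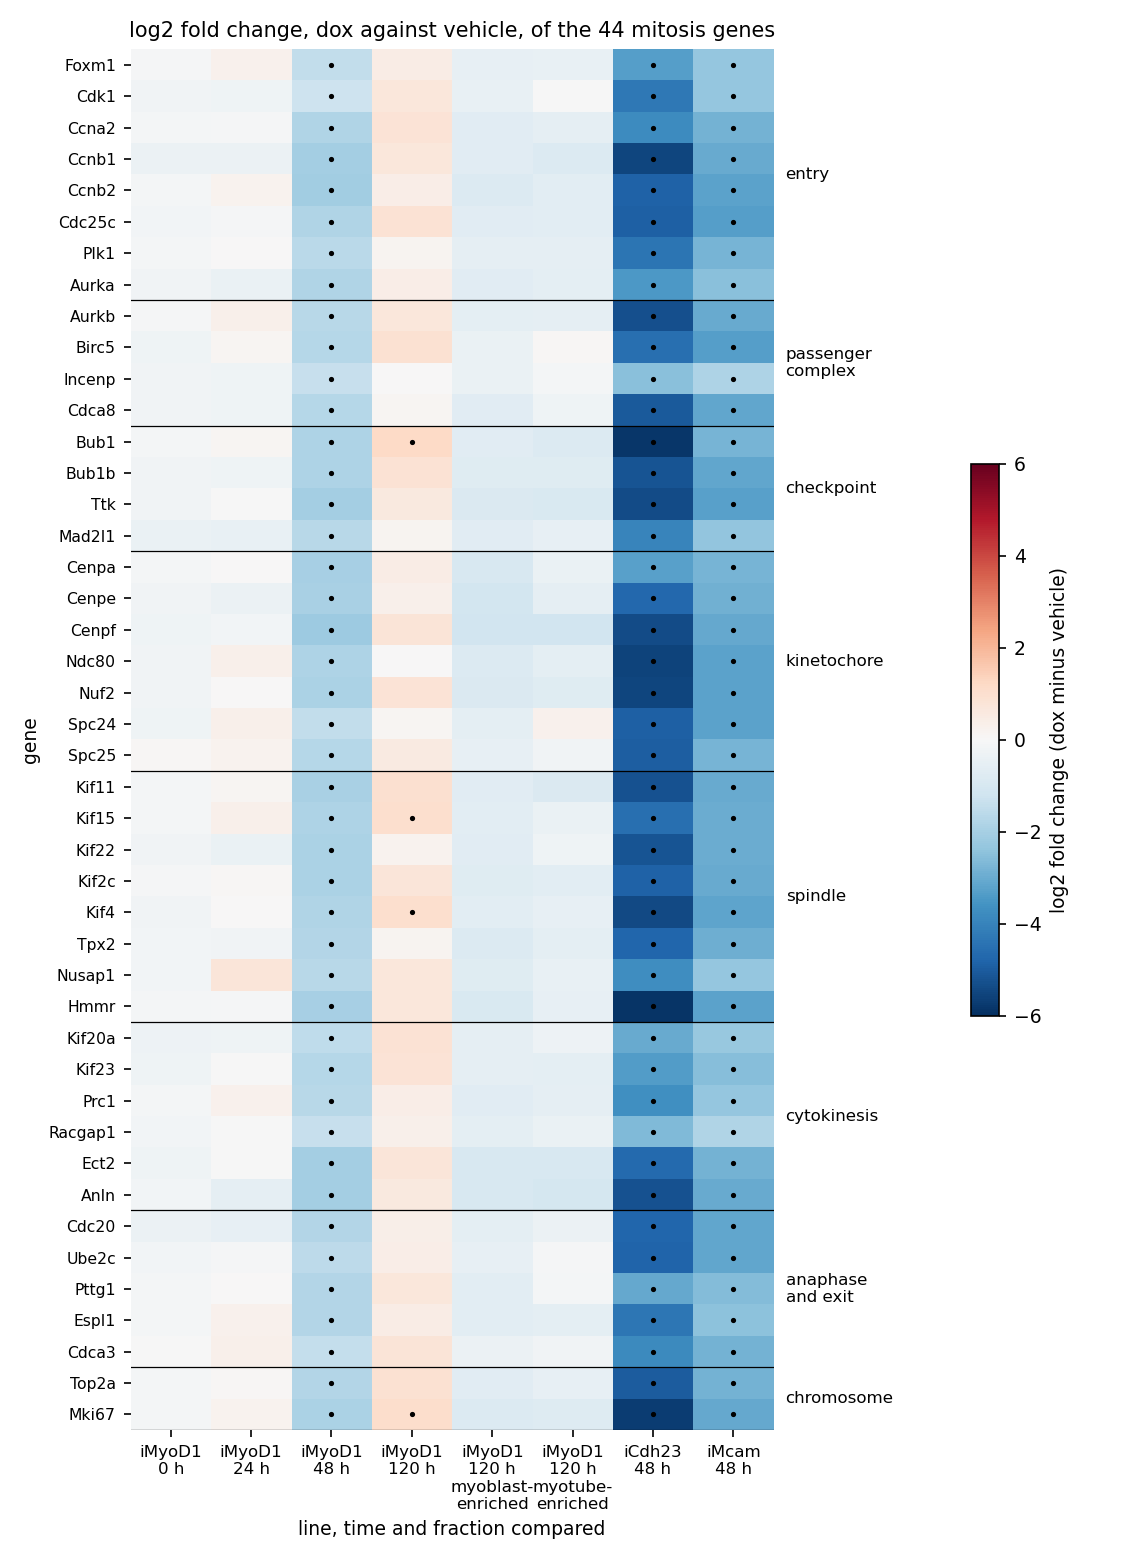
Heat map of the log2 change with dox against vehicle, 1 row per mitosis gene in the order of its role and 1 column per dox comparison, blue lower and red higher with dox, and a dot marks a called gene. The 3 columns of 48 h are blue in all 44 rows and deepest in iCdh23 (median −4.78), and the column of iMyoD1 whole cultures at 120 h is red or near 0 in all 44 rows (median 0.66).

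Genes of mitotic entry were led in iCdh23 by the cyclin gene Ccnb1 and moved least at Foxm1. Foxm1, the transcription factor of G2 and M phase genes, was at 71.0, 68.3 and 62.1 CPM in iMyoD1 vehicle libraries and at 26.7, 24.4 and 22.7 CPM with dox (log2 change −1.46 ± 0.08, SE). In iMcam it went from 52.5, 48.6 and 52.5 to 11.8, 7.34 and 10.9 CPM (−2.32 ± 0.17), and in iCdh23 from 55.2, 48.4 and 55.4 to 6.76, 3.67 and 5.81 CPM (−3.30 ± 0.22). Ccnb1 encodes cyclin B1, the partner of Cdk1. Its level was 85.8, 87.6 and 88.5 CPM in iMyoD1 with vehicle and 21.5, 22.1 and 21.3 CPM with dox (−2.03 ± 0.07). It was 47.3, 41.9 and 57.9 against 7.64, 2.85 and 7.14 CPM in iMcam (−3.02 ± 0.32), and 43.3, 47.3 and 66.8 against 1.46, 0.662 and 1.35 CPM in iCdh23 (−5.52 ± 0.31). Ccnb1 thus had a steeper change than Foxm1 in each line. Cdk1, the kinase that cyclin B activates, was at 119, 113 and 112 CPM in iMyoD1 with vehicle and at 42.5, 51.0 and 51.7 CPM with dox (−1.26 ± 0.08), the smallest change of the list in this line. In iMcam its values were 71.5, 62.5 and 75.3 against 16.8, 10.5 and 13.9 CPM (−2.31 ± 0.17), and in iCdh23 75.0, 86.6 and 77.6 against 4.63, 2.42 and 5.31 CPM (−4.28 ± 0.27). Plk1, the Polo kinase of mitotic entry and exit, was at 59.6, 52.4 and 56.8 CPM against 16.3, 17.7 and 23.0 CPM in iMyoD1 (−1.60 ± 0.12). With dox it was at 6.46, 3.06 and 5.43 CPM in iMcam (−2.80 ± 0.25) and at 2.63, 1.09 and 1.57 CPM in iCdh23 (−4.37 ± 0.28), each below vehicle levels of 30.8 to 39.4 CPM. Over the 8 entry genes, which also include Ccna2, Ccnb2, Cdc25c and Aurka, the median was −1.80 in iMyoD1, −2.81 in iMcam and −4.33 in iCdh23.

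The chromosomal passenger complex joins the kinase Aurkb to Incenp, Birc5 (survivin) and Cdca8 (borealin) and corrects faulty attachments. Aurkb was at 57.9, 60.8 and 59.9 CPM in iMyoD1 with vehicle and at 19.0, 18.5 and 19.9 CPM with dox (−1.66 ± 0.07). It was at 27.8, 29.1 and 34.5 against 4.65, 2.60 and 3.55 CPM in iMcam (−3.04 ± 0.21), and at 30.9, 31.8 and 39.5 against 0.751, 0.397 and 1.46 CPM in iCdh23 (−5.29 ± 0.37). Birc5 was at 80.9, 78.8 and 75.3 against 20.7, 25.6 and 27.4 CPM in iMyoD1 (−1.69 ± 0.10). Its values were 31.0, 26.2 and 40.6 against 3.62, 2.60 and 3.45 CPM in iMcam (−3.29 ± 0.21), and 30.7, 30.6 and 32.8 against 1.29, 0.927 and 1.89 CPM in iCdh23 (−4.52 ± 0.23). Incenp, the scaffold of the same complex, moved far less: in iCdh23 it was at 52.2, 49.6 and 62.6 CPM with vehicle and still at 10.3, 8.84 and 9.84 CPM with dox (−2.51 ± 0.13), the smallest change of the 44 genes there. The medians of the 4 genes were −1.68, −3.08 and −4.79 in iMyoD1, iMcam and iCdh23.

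Spindle checkpoint genes encode the kinases Bub1 and Ttk, the pseudokinase Bub1b (BubR1) and Mad2l1 (Mad2), which restrains Cdc20. Bub1b was at 74.4, 74.1 and 81.0 CPM in iMyoD1 with vehicle and at 22.5, 21.8 and 19.4 CPM with dox (−1.86 ± 0.08). It was at 45.5, 42.8 and 55.4 against 6.46, 3.52 and 6.31 CPM in iMcam (−3.10 ± 0.23), and at 46.3, 51.3 and 60.4 against 1.21, 1.06 and 2.07 CPM in iCdh23 (−5.18 ± 0.25). Mad2l1 had the smallest change of the 4 checkpoint genes in each line. Its levels were 47.7, 45.6 and 46.1 against 14.5, 14.1 and 15.5 CPM in iMyoD1 (−1.68 ± 0.08), 28.9, 23.4 and 33.4 against 6.22, 4.18 and 5.53 CPM in iMcam (−2.39 ± 0.19), and 34.9, 39.9 and 39.6 against 1.83, 2.25 and 3.28 CPM in iCdh23 (−3.95 ± 0.21). Bub1, whose promoter above lacks the CHR letters, was at 30.3, 36.1 and 41.7 CPM in iCdh23 with vehicle and at 0.626, 0.364 and 0.892 CPM with dox (−5.84 ± 0.28). The medians of the 4 genes were −1.85, −2.95 and −5.27 in iMyoD1, iMcam and iCdh23.

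At the kinetochore, Cenpa, the histone H3 variant that marks centromeres, and Ndc80, the microtubule-binding subunit of the complex with Nuf2, Spc24 and Spc25, parted in iCdh23. Cenpa was at 77.0, 78.2 and 77.9 against 18.3, 19.6 and 22.7 CPM in iMyoD1 (−1.97 ± 0.09) and at 35.0, 26.5 and 41.9 against 4.95, 3.57 and 5.99 CPM in iMcam (−2.79 ± 0.23). In iCdh23 it was at 29.9, 30.9 and 54.3 against 3.96, 3.77 and 4.24 CPM (−3.27 ± 0.26), the smallest change of the 7 kinetochore genes. Ndc80 had the largest change of the 7 in iMcam and iCdh23. It was at 36.7, 36.5 and 39.0 against 10.5, 10.8 and 9.54 CPM in iMyoD1 (−1.87 ± 0.08), 21.9, 18.3 and 24.5 against 2.35, 1.22 and 3.09 CPM in iMcam (−3.23 ± 0.29), and 22.1, 27.2 and 43.6 against 0.667, 0.397 and 0.892 CPM in iCdh23 (−5.57 ± 0.38). The medians of the 7 genes, with Cenpe and Cenpf among them, were −1.88, −3.09 and −4.93 in iMyoD1, iMcam and iCdh23.

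Spindle genes of the list encode the motors Kif11 (Eg5), Kif15, Kif22, Kif2c and Kif4 and the microtubule-associated proteins Tpx2, Nusap1 and Hmmr. Kif11, which pushes the spindle poles apart, was at 84.8, 87.3 and 89.8 against 24.1, 22.9 and 21.6 CPM in iMyoD1 (−1.95 ± 0.07). It was at 49.9, 50.6 and 66.7 against 7.25, 3.57 and 8.89 CPM in iMcam (−3.04 ± 0.30), and at 54.5, 64.1 and 83.0 against 2.04, 1.03 and 2.32 CPM in iCdh23 (−5.24 ± 0.31). Tpx2 activates the kinase Aurka on the spindle. It was at 134, 132 and 128 against 37.4, 39.8 and 40.3 CPM in iMyoD1 (−1.76 ± 0.06), 74.6, 64.7 and 92.4 against 12.2, 5.50 and 11.7 CPM in iMcam (−2.94 ± 0.29), and 77.9, 86.1 and 126 against 3.71, 2.71 and 4.35 CPM in iCdh23 (−4.75 ± 0.26). Hmmr had the largest change of the 44 genes in iCdh23, from 35.2, 45.8 and 60.4 to 0.918, 0.364 and 1.11 CPM. The medians of the 8 genes were −1.86, −2.997 and −5.01 in iMyoD1, iMcam and iCdh23.

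The 6 genes of the central spindle and cytokinesis had medians of −2.44 in iMcam and −3.52 in iCdh23, nearest to 0 of the 8 roles there, and −1.68 in iMyoD1. Ect2 (−4.66) and Anln (−5.22) fell further in iCdh23, and the roles were not tested against each other. Kif23, the motor of the centralspindlin complex, was at 63.7, 64.8 and 64.6 against 18.0, 19.4 and 23.5 CPM in iMyoD1 (−1.69 ± 0.10). Its values were 40.4, 35.5 and 44.9 against 8.23, 4.84 and 6.77 CPM in iMcam (−2.57 ± 0.19), and 35.3, 36.8 and 44.5 against 4.96, 2.81 and 3.82 CPM in iCdh23 (−3.34 ± 0.22). Racgap1, the other centralspindlin subunit, was at 109, 112 and 153 CPM with vehicle and at 20.8, 18.1 and 21.2 CPM with dox in iCdh23 (−2.64 ± 0.16). Anln (anillin), the scaffold of the contractile ring, had the largest change of the 6 in iMcam and iCdh23. It was at 143, 146 and 144 against 38.7, 34.9 and 32.5 CPM in iMyoD1 (−2.04 ± 0.07), 118, 106 and 144 against 16.2, 9.63 and 17.9 CPM in iMcam (−3.03 ± 0.23), and 114, 123 and 175 against 4.13, 2.18 and 4.78 CPM in iCdh23 (−5.22 ± 0.32).

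Among genes of anaphase and mitotic exit, Cdc20 activates the anaphase-promoting complex, Ube2c supplies it with ubiquitin, and Pttg1 (securin) and Espl1 (separase) govern the cut of cohesin. Cdca3 was grouped with them for the medians, which says nothing of when its protein acts. Cdc20 was at 111, 97.1 and 101 against 25.9, 32.5 and 34.6 CPM in iMyoD1 (−1.76 ± 0.11). It was at 55.8, 44.5 and 56.1 against 7.54, 3.77 and 6.08 CPM in iMcam (−3.13 ± 0.24), and at 43.5, 39.7 and 44.3 against 2.17, 0.993 and 1.60 CPM in iCdh23 (−4.76 ± 0.25). Ube2c followed with similar sizes of change. It was at 69.8, 64.2 and 73.8 against 19.1, 26.4 and 26.3 CPM in iMyoD1 (−1.55 ± 0.12), 35.0, 27.1 and 39.6 against 5.24, 1.58 and 4.70 CPM in iMcam (−3.10 ± 0.37), and 35.9, 33.9 and 45.7 against 1.54, 0.927 and 1.71 CPM in iCdh23 (−4.79 ± 0.25). Ube2c overlaps Tnnc2, a troponin gene of fast muscle, on the opposite strand, and Cdc20 overlaps Elovl1 in the same way. The labels name the NEBNext Ultra II RNA kit and not its directional version, which is the one that keeps strand. Reads from stretches that 2 such genes share thus cannot be told apart, and whether their exons overlap was not checked. The medians of the 5 genes were −1.74, −2.85 and −4.33 in iMyoD1, iMcam and iCdh23.

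Top2a, the topoisomerase that untangles sister chromatids, and Mki67, the Ki-67 coat protein of mitotic chromosomes, had the highest CPM of the panel in the vehicle libraries of 48 h. Top2a was at 389, 375 and 390 against 117, 115 and 107 CPM in iMyoD1 (−1.78 ± 0.06). It was at 219, 212 and 276 against 35.6, 21.8 and 40.0 CPM in iMcam (−2.82 ± 0.23), and at 233, 268 and 350 against 10.7, 5.49 and 10.3 CPM in iCdh23 (−5.01 ± 0.31). Mki67, whose protein is a common mark of cycling cells, followed the same order. Its values were 280, 283 and 268 against 86.2, 72.2 and 66.8 CPM in iMyoD1 (−1.90 ± 0.09), 198, 213 and 258 against 28.4, 11.97 and 37.7 CPM in iMcam (−3.06 ± 0.37), and 198, 237 and 356 against 5.38, 2.68 and 7.24 CPM in iCdh23 (−5.69 ± 0.42).

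Whether the 3 lines differed in the size of the dox effect was tested with interaction terms. The drop in iCdh23 exceeded that in iMyoD1 for 44 of 44 genes, against 12.1% of all genes, with a median difference of −2.98 and a range from −3.99 ± 0.27 for Bub1 and −3.87 ± 0.34 for Hmmr to −1.24 ± 0.17 for Racgap1 and −1.13 ± 0.14 for Incenp. It exceeded that in iMcam for 29 of 44, against 5.47% of all genes, with a median of −1.80 and a range from −3.02 ± 0.45 for Bub1 and −2.68 ± 0.59 for Hmmr to −0.45 ± 0.37 for Cenpa and −0.44 ± 0.43 for Pttg1, which did not pass (adjusted p = 0.506 and 0.589). The drop in iMcam exceeded that in iMyoD1 for 20 of 44, against 1.57% of all genes, with a median of −1.09. Spc24 (−1.75 ± 0.36) and Birc5 (−1.61 ± 0.23) differed most between iMcam and iMyoD1, and Incenp (−0.48 ± 0.13) and Racgap1 (−0.41 ± 0.14) least. The counts of 29 and 20 became 0 with all groups of the deposited tables involved in 1 fit, which changes the spread estimate, the scaling and the filter together. The first was 19 without iCdh23 dox replicate 2, and the second was 10 to 12 without iMcam dox replicate 2, iMyoD1 dox replicate 2 or 3, or any 1 iMyoD1 vehicle replicate. The iMyoD1 libraries of 48 h and those of iMcam and iCdh23 lie in different deposited tables, so line and table cannot be told apart in the 2 tests against iMyoD1.

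With vehicle, iCdh23 and iMcam differed in none of the 44 genes by edgeR, against 0.35% of all genes called, with 3 genes below an unadjusted p of 0.05 and 0 called by DESeq2. Their median difference was 0.16 (−0.021 to 0.26 on leaving out 1 library), from −0.30 for Cdc20 and −0.25 for Spc24 to 0.49 for Nusap1 and 0.51 for Ndc80. With dox, 32 of the 43 genes tested were lower in iCdh23 than in iMcam, against 8.18% of all genes, with a median of −1.75. Bub1 (0.627 against 4.03 CPM, log2 difference −2.71 ± 0.40) and Hmmr (−2.45 ± 0.52) stood at one end, and Pttg1 (−0.41 ± 0.29) and Cenpa (−0.31 ± 0.20) at the other. The count was 19 with all groups in 1 fit.

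Over time in iMyoD1 vehicle cultures, the list was lower at 24 h than at 0 h, stood higher at 48 h than at 24 h, and was lower again at 120 h. Per the methods of the paper, cultures to be differentiated were seeded with more cells than those kept in growth medium. Medium and cell density thus cannot be told apart between 0 h and later times, with vehicle or dox. From 0 to 24 h 43 of 44 genes fell, against 16.6% of all genes, with a median of −1.86 (3.62-fold). Ccnb2, the second B-type cyclin, fell from 115 to 21.2 CPM (−2.41 ± 0.06) and Mki67 from 868 to 168 CPM (−2.34 ± 0.08), while Tpx2 fell from 248 to 121 CPM (−1.002 ± 0.060) and Incenp stayed under the fold threshold (−0.86 ± 0.06, adjusted p = 9.80e-09). From 24 to 48 h 17 of 44 were higher and none lower, against 19.3% of all genes higher, and 40 were higher at an adjusted p below 0.05 alone, against 38.4% of all genes. Spc24 led at 12.4 to 49.4 CPM (1.99 ± 0.10), then Ccnb2 at 21.2 to 70.3 CPM (1.74 ± 0.07), while Tpx2 (0.12 ± 0.06) and Cenpe (0.09 ± 0.06) did not pass. The 0 and 24 h libraries and the 48 and 120 h libraries lie in different deposited tables, and the latter alone carry a batch label, so time and table cannot be told apart for this step. From 48 to 120 h 44 of 44 fell, against 18.1% of all genes, with a median of −2.43. The 120 h whole cultures stood apart in the number of genes detected, with 16373 to 17004 genes at a count above 0 in the vehicle libraries against 18082 to 18442 at 48 h, and 16422 to 16875 with dox. Their vehicle mean of 742 CPM also lay below the means of both vehicle fractions of 120 h (2518 and 1108 CPM), which lie in another table and held 18429 to 19624 genes, and the part of this in the drop was not tested. Spc24 fell from 49.4 to 4.16 CPM (−3.55 ± 0.12) and Plk1 from 56.3 to 5.39 CPM (−3.36 ± 0.18), and Prc1 (−1.68 ± 0.10) and Cenpe (−1.57 ± 0.14) fell least.

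With dox the order of the time points differed. From 0 to 24 h 43 of 44 genes fell, against 11.6% of all genes, with a median of −1.63, led by Anln (−2.11 ± 0.05) and Ccna2 (−2.08 ± 0.06) and least for Tpx2 (−1.01 ± 0.06) and Incenp (−0.89 ± 0.08), the latter not called. From 24 to 48 h 21 of 44 were lower and none higher, against 11.8% of all genes lower, and 42 were lower at an adjusted p below 0.05 alone, against 35.5% of all genes, with Hmmr (−1.85 ± 0.07) and Cdc25c (−1.63 ± 0.13) first and Ube2c (−0.20 ± 0.12) and Spc24 (0.16 ± 0.17) not passing. From 48 to 120 h 4 of 44 fell, against 21.3% of all genes, and 2 rose, against 15.1% of all genes. At an adjusted p below 0.05 alone, 18 were lower and 13 higher, against 38.6% and 34.9% of all genes. The 4 that fell were Spc24 (−1.95 ± 0.20), Plk1 (−1.61 ± 0.16), Ube2c (−1.33 ± 0.14) and Cdc20 (−1.08 ± 0.14), and the 2 that rose were Mki67 (1.15 ± 0.12) and Cenpf (1.07 ± 0.11). The dox effect at 48 h was lower than that at 24 h for 44 of 44 genes, against 8.96% of all genes, each effect taken within its own table. The median of this difference was −1.79, from −2.40 ± 0.08 for Nusap1 and −2.28 ± 0.11 for Ccnb2 to −1.11 ± 0.08 for Incenp and −1.02 ± 0.11 for Cdk1.

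**Figure D3:**
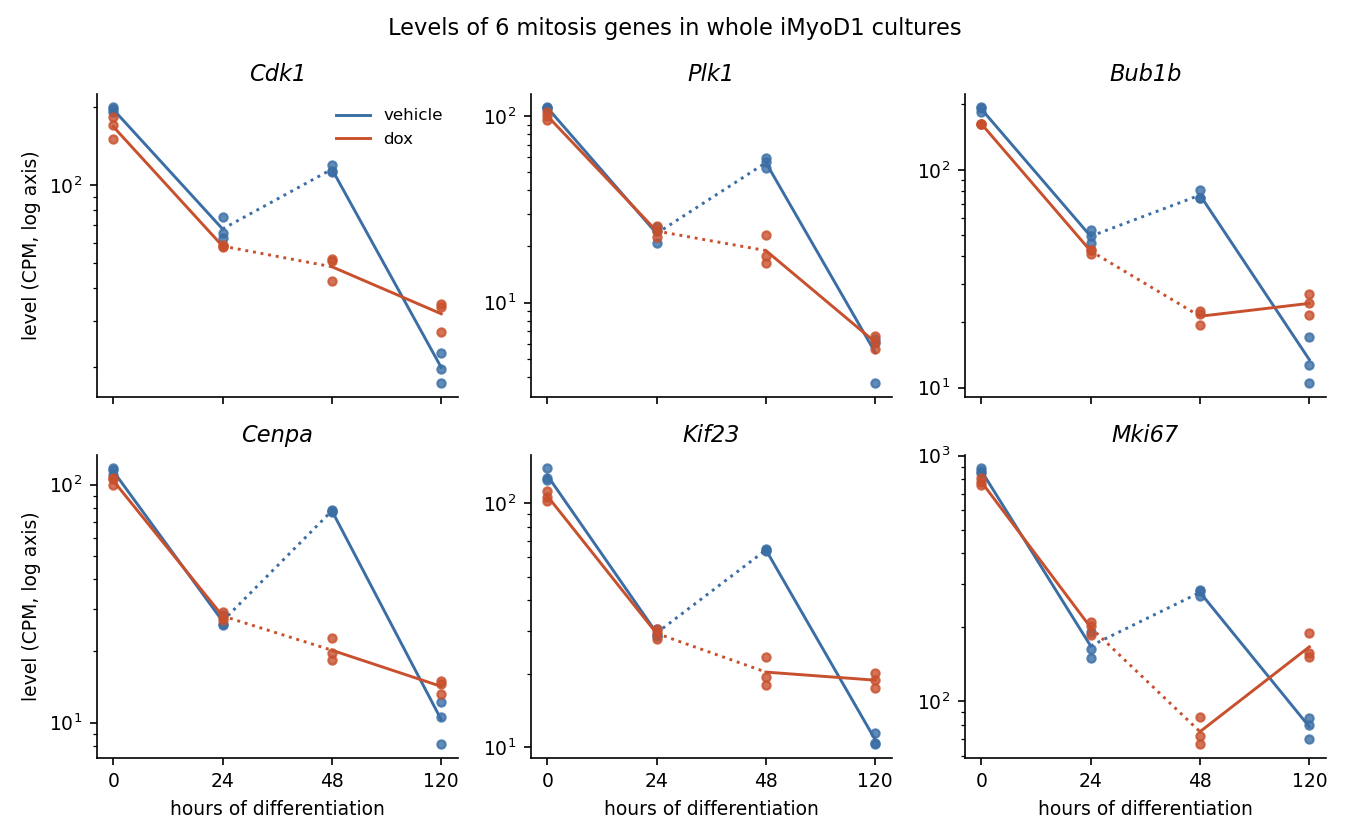
Level of 6 genes in CPM on log axes against time of differentiation in iMyoD1 whole cultures, vehicle and dox, 1 point per library and lines through the means, with unequal times drawn at equal spacing. Dotted segments between 24 and 48 h mark the change of deposited table. Vehicle lies above dox at 48 h in each panel, and for Mki67 dox lies above vehicle at 120 h, at 190, 158 and 152 against 70.0, 85.5 and 80.3 CPM.

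At 0 and 24 h dox changed little. In growth medium 0 of 44 genes were called by edgeR, against 4.27% of all genes in either direction, with 32 genes below an unadjusted p of 0.05 and 0 called by DESeq2. At an adjusted p below 0.05 alone, 26 of 44 were lower with dox, against 18.7% of all genes. The median change was −0.15, which became −0.045 when library size alone scaled the counts, with Mad2l1 (−0.40 ± 0.07, adjusted p = 0.000431) and Cdc20 (−0.37 ± 0.05) lowest and Cdca3 (−0.00 ± 0.06) and Spc25 (0.07 ± 0.07) highest. At 24 h 0 of 44 were called by edgeR, against 13.1% of all genes, with 26 below an unadjusted p of 0.05 and 0 called by DESeq2. At an adjusted p below 0.05 alone, 12 were higher and 14 lower, against 31.1% and 31.7% of all genes, and the median was 0.00 (0.27 with library size alone). Nusap1, which bundles spindle microtubules, was higher at 51.0 against 30.4 CPM (0.72 ± 0.05, adjusted p = 2.00e-07) and Cdca3 at 28.6 against 22.5 CPM (0.32 ± 0.06), while Anln was lower at 80.3 against 115 CPM (−0.54 ± 0.07) and Cdc20 at 38.3 against 52.6 CPM (−0.49 ± 0.06). The dox effect at 24 h differed from that at 0 h in none of the 44 genes by edgeR with the fold threshold, against 5.47% of all genes, with 23 below an unadjusted p of 0.05 and 0 called by DESeq2. At an adjusted p below 0.05 alone, 13 were higher and 1 lower, against 13.3% and 20.7% of all genes. The median of that difference was 0.11, from −0.44 for Anln and −0.24 for Aurka to 0.52 for Spc24 and 0.82 for Nusap1.

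At 120 h in whole cultures the direction was the opposite of that at 48 h. All 44 log2 changes were above 0 with a median of 0.66 (1.58-fold), 4 genes rose, against 7.32% of all genes, and 27 were higher at an adjusted p below 0.05 alone, against 21.4% of all genes. Bub1 was at 6.30, 6.74 and 7.995 CPM with vehicle and at 16.6, 14.6 and 17.9 CPM with dox (1.21 ± 0.16, adjusted p = 0.000326). Mki67 was at 70.0, 85.5 and 80.3 against 190, 158 and 152 CPM (1.07 ± 0.12, adjusted p = 9.47e-05). No library of either group overlapped the other for these genes. The spindle motors Kif4 (7.78, 7.87 and 8.23 against 17.0, 16.0 and 15.7 CPM) and Kif15 (5.02, 7.15 and 6.19 against 14.7, 10.1 and 12.6 CPM) each rose by 1.01 on the log2 scale, just past the fold threshold. Ndc80 (0.01 ± 0.19) and Incenp (0.03 ± 0.14) were nearest to 0. Library size alone gave 13 calls, and leaving out vehicle or dox replicate 1 gave 1. The share of all genes called at these settings is not given here. In these cultures 2 of 8 myotube markers were lower with dox (median −0.52), and mitochondrial genes held 3.62, 4.58 and 5.38% of counts with vehicle and 6.98, 6.09 and 6.17% with dox. The part of either in the result was not tested. The whole vehicle mean of 742 CPM lay below the means of both vehicle fractions (2518 and 1108 CPM). The whole dox mean of 1192 CPM lay between those of the dox fractions (1542 and 753 CPM). In the fractions, which lie in another deposited table, 44 (myoblast-enriched) and 42 (myotube-enriched) of 44 log2 changes with dox were below 0, none called by edgeR. The part of the whole vehicle libraries in the opposite direction was not tested. The dox effect at 120 h was higher than that at 48 h for 44 of 44 genes, against 7.18% of all genes, with a median difference of 2.41. It was largest for Bub1 (3.05 ± 0.17) and Mki67 (2.97 ± 0.16) and smallest for Spc24 (1.61 ± 0.27) and Incenp (1.39 ± 0.14).

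In the 120 h fractions the replicates of a group differed widely. The summed level was 3477, 1374 and 2702 CPM in the myoblast-enriched vehicle libraries and 1811, 428.9 and 1084 CPM in the myotube-enriched ones, so replicate 2 was lowest in both. Mitochondrial genes held 7.27% of counts in vehicle replicate 2 of the myoblast-enriched fraction against 4.59 and 4.09% in the others, and 11.34% against 8.92 and 7.32% in the myotube-enriched fraction, and their part in these differences was not tested. With dox it was 1015 and 2068 CPM (replicates 2 and 3) in the myoblast-enriched and 751.3, 484.8 and 1024 CPM in the myotube-enriched fraction. With vehicle the mean was 2.27-fold higher in the myoblast-enriched fraction, but 0 of 44 genes were called by edgeR, against 0.585% of all genes, with 32 below an unadjusted p of 0.05 and 8 called lower in the myotube-enriched fraction by DESeq2. Same-numbered libraries deviated together (r from 0.209 to 0.542), and with the replicate as a block 43 of 44 genes were lower in the myotube-enriched fraction, against 1.13% of all genes. The median difference without the block was −1.26. Pttg1 was at 34.2, 18.2 and 37.0 CPM in the myoblast-enriched and at 14.8, 3.75 and 11.6 CPM in the myotube-enriched vehicle libraries (−1.55 ± 0.47, adjusted p = 0.176). Cdc25c came next (−1.48 ± 0.54), and Prc1 (−0.97 ± 0.41) and Cenpf (−0.77 ± 0.49) were at the other end. Cdk1 was at 102, 48.3 and 82.3 against 45.5, 15.5 and 35.2 CPM, lower in the myotube-enriched library of each number. With dox 0 of 44 were called by edgeR or DESeq2, against 0.0% of all genes, with 15 below an unadjusted p of 0.05. The median with dox was −1.09, from −1.45 for Ccnb1 and −1.43 for Cdc25c to −0.62 for Cenpe and −0.35 for Spc24.

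Dox against vehicle within the fractions gave no calls in the main edgeR tests. In the myoblast-enriched fraction 0 of 44 were called by edgeR or DESeq2, against 3.03% of all genes, with 4 below an unadjusted p of 0.05, although all 44 log2 changes were below 0 (median −0.67, and −1.28 to −0.26 on leaving out 1 library). The dox group has no replicate 1, the number with the highest vehicle sum, and the sums with vehicle and dox were 1374 and 1015 CPM for replicate 2 and 2702 and 2068 CPM for replicate 3. Cenpf was at 113, 43.6 and 83.0 CPM with vehicle and at 22.9 and 49.6 CPM with dox (−1.13 ± 0.44, adjusted p = 0.188), and the groups overlapped. Cenpe (−1.08 ± 0.43) came next, and Birc5 (−0.38 ± 0.33) and Cdca3 (−0.37 ± 0.33) were nearest to 0. Without vehicle replicate 2, 6 genes were called lower. In the myotube-enriched fraction 0 of 44 were called by edgeR or DESeq2, against 0.0% of all genes, with 1 below an unadjusted p of 0.05 and a median of −0.53 (−0.91 to −0.029 on leaving out 1 library). Cenpf (−1.14 ± 0.48) and Anln (−1.06 ± 0.67) were lowest and Birc5 (0.06 ± 0.61) and Spc24 (0.26 ± 0.67) highest. The 2 fractions did not differ in the dox effect for any of the 44 genes by edgeR or DESeq2, against 0.0% of all genes, with 0 below an unadjusted p of 0.05. That difference had a median of 0.15, which lay between −0.23 and 0.72 on leaving out 1 library, so its sign rested on single libraries. It ran from −0.16 for Bub1 and Kif11 to 0.56 for Cenpa and 0.81 for Spc24, each with an SE of at least 0.599, and a difference of that size was not detectable with these libraries.

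Compared with whole cultures, the dox effect was lower in the myoblast-enriched fraction for 5 of 44 genes, against 2.43% of all genes, with a median difference of −1.31. The 5 were Cenpf (−1.89 ± 0.48), Nuf2 (−1.67 ± 0.42), Ccna2 (−1.51 ± 0.42), Kif20a (−1.44 ± 0.40) and Cenpa (−1.41 ± 0.39), with adjusted p between 0.0344 and 0.0490. Mki67 (−1.87 ± 0.56) had the second largest difference and did not pass, and Plk1 (−0.69 ± 0.54) and Incenp (−0.45 ± 0.44) were nearest to 0. This count was 36 without vehicle replicate 2 of that fraction and at most 2 without any other single library of a group with 3. Leaving out 1 of the 2 dox libraries of that fraction left 1 library in its group, so no count is given for it. It was 0 with all groups in 1 fit, 2 with the replicate block, 8 with library size alone, 23 by DESeq2 and 31 without the low-count filter. Fraction and deposited table cannot be told apart in it. In the myotube-enriched fraction 0 of 44 differed from whole cultures by edgeR, against 0.0404% of all genes, with 16 below an unadjusted p of 0.05 and 1 called by DESeq2. With all groups in 1 fit 9 were lower there, and without myotube-enriched dox replicate 3 the count was 4. Bub1 (−2.08 ± 0.76) and Cenpf (−1.96 ± 0.54) were lowest there and Incenp (−0.23 ± 0.54) and Spc24 (0.04 ± 0.75) highest.

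**Figure D4:**
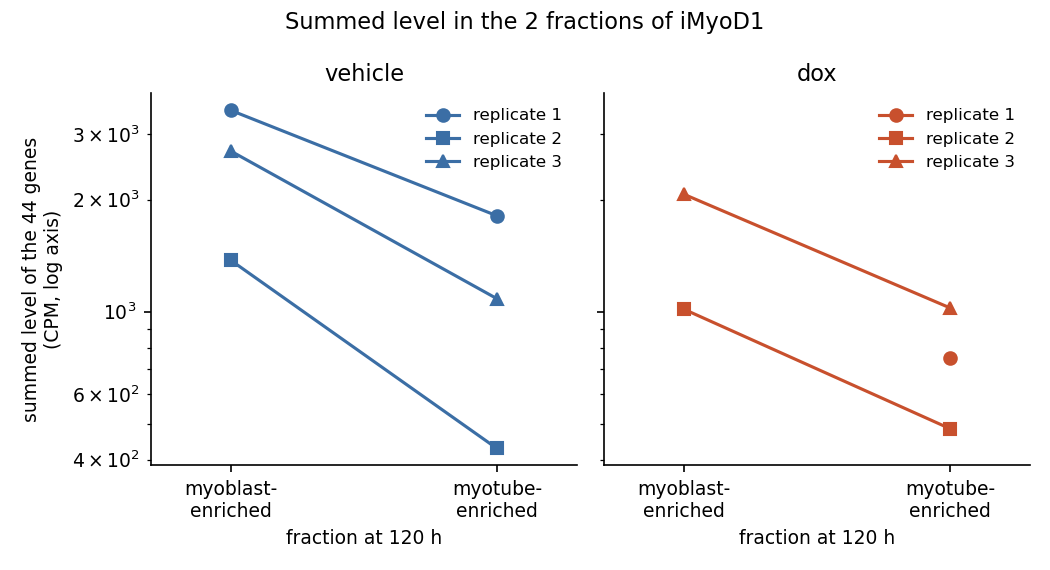
Summed level of the 44 mitosis genes in CPM on a log axis in the myoblast-enriched and myotube-enriched fractions of iMyoD1 cultures at 120 h, vehicle and dox, 1 point per library with lines joining libraries of the same replicate number. The vehicle line of each number goes down from the myoblast-enriched to the myotube-enriched fraction, with replicate 2 lowest in both.

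Related genes outside the list were taken from 5 further lists. Of 30 other genes of mitosis, 29 fell with dox at 48 h in each line, against 8.46%, 9.85% and 17.0% of all genes lower in iMyoD1, iMcam and iCdh23, with medians of −1.80, −2.83 and −4.63. The exception in all 3 lines was Zwint, a kinetochore adaptor, at −0.47, −0.65 and −0.53. Of 8 condensin subunits, which compact mitotic chromosomes, 5, 5 and 6 fell, with medians of −1.23, −1.54 and −1.93, and Ncaph2, a subunit of condensin II, was not called in any (−0.47, −0.44 and −0.75). Of 13 MuvB and E2F factors 5, 5 and 7 fell, with medians of −0.57, −0.92 and −1.31. Mybl2 (B-Myb), the MuvB partner of G2 and M phase promoters, was among them in each line at −1.31, −2.73 and −3.45, as were E2f2, E2f7 and E2f8. No call was made among 9 cohesin subunits and regulators (medians −0.21, 0.02 and −0.18) or 15 subunits and coactivators of the anaphase-promoting complex (−0.14, −0.11 and −0.14). By edgeR 6, 2 and 4 of the cohesin genes and 8, 4 and 6 of the complex's genes were below an unadjusted p of 0.05 in iMyoD1, iMcam and iCdh23, and DESeq2 called 0 of either list. At 120 h in iMyoD1 whole cultures, 2 of the 30 other mitosis genes rose (Fam83d at 1.13 and Kif14 at 1.08) with 1 condensin subunit (Ncaph at 1.305), against 7.32% of all genes higher, while E2f2 (−1.38) and E2f8 (−1.66) fell, against 8.8% lower.

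**Figure D5:**
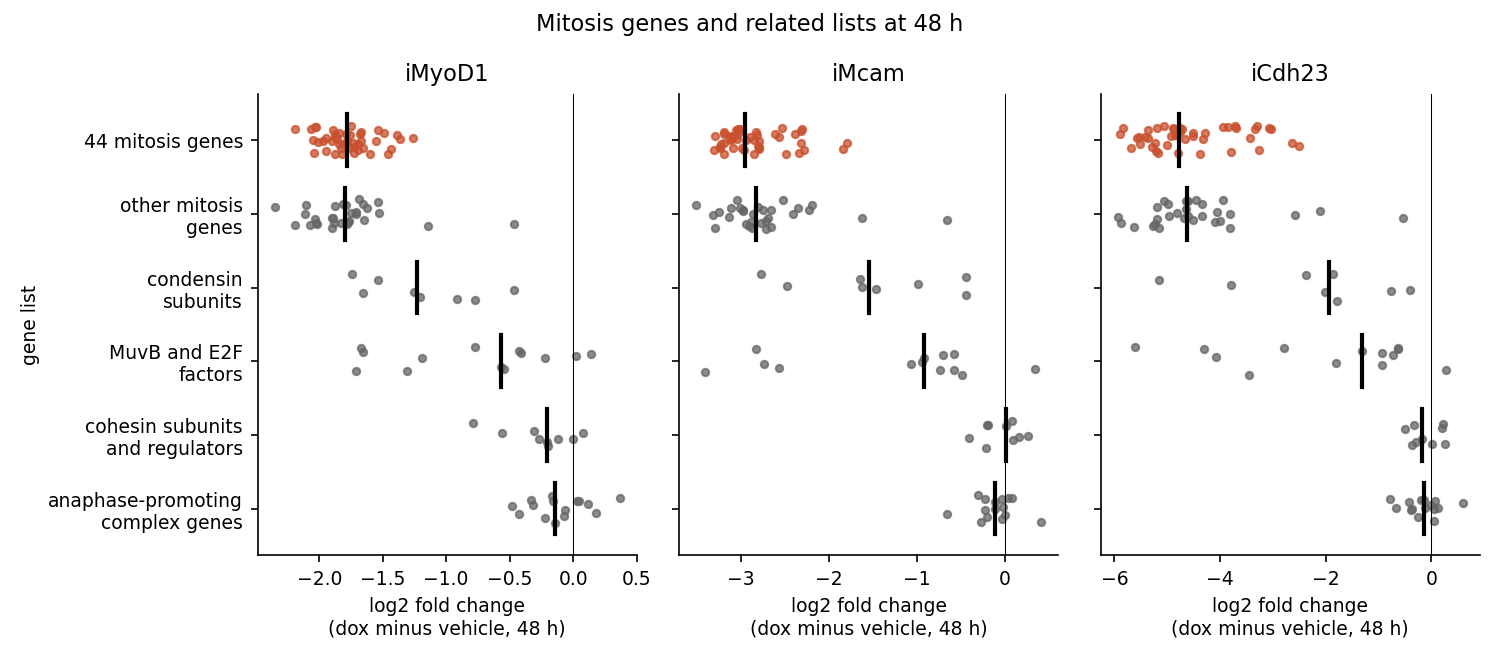
Log2 change with dox at 48 h, 1 point per gene for the 44 mitosis genes and the 5 related lists, 1 panel per line with its own horizontal scale and a black bar at each median. The mitosis genes and the other mitosis genes lie well below 0 (medians −1.78 and −1.80 in iMyoD1), and the cohesin subunits and regulators and the anaphase-promoting complex genes lie around 0.

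Per base of transcript, Cdk1, Top2a and Racgap1 were the 3 highest of the 44 genes in most groups. In growth medium with vehicle their levels were 354, 342 and 254 TPM (counts over transcript length, scaled to the same total in each library), against a median of 87.9 over the list, and Espl1 (28.9), Cdc25c (28.7) and Kif15 (26.4) were lowest. In iCdh23 with dox Racgap1 (19.5), Cdk1 (9.50) and Incenp (8.02) were highest, and Ttk (0.474), Cenpf (0.472) and Cdc25c (0.326) lowest. In the group means Cdk1 and Top2a changed places in growth medium between vehicle and dox, but in dox replicate 3 Cdk1 was still the higher (358 against 349 TPM). From the highest to the lowest group mean in CPM, Incenp spanned 13.1-fold and Racgap1 17.3-fold, while Mki67 spanned 170-fold, Ccnb1 182-fold and Hmmr 196-fold. Across the 47 libraries, the Spearman correlation of a gene with the summed level of the other 43 was between 0.866 (Spc24) and 0.994, with a median of 0.970. These libraries share groups, tables and depth, and the values are a description.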

How the data were processed

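RNA was measured by polyA RNA sequencing of 47 libraries, and per the submitters' processing notes the authors used Salmon with mm10 inside nf-core/rnaseq (3.18.0). The authors deposited 3 tables of estimated counts per transcript (unit: expected counts, not normalized). The labels name the NEBNext Ultra II RNA kit and not its directional version, so reads are taken as without strand, and 10 of the 44 genes overlap a gene on the opposite strand. Transcript counts were summed per Ensembl gene and rounded. Each comparison used its own groups alone in edgeR 4.0.16 (R 4.3.3) with the filterByExpr filter, TMM scaling and the quasi-likelihood test, and p-values were Benjamini-Hochberg adjusted over all genes tested. Differences between dox effects were interaction contrasts, and 5 of the 9 were added after the data were seen. An SE is the log2 change over the square root of F. The same steps were tested on simulated data.

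The members and lists were chosen with earlier results of these data known. Values per library are given for a panel of 18 genes with at least 1 of each role. In each comparison the 2 highest and the 2 lowest genes are named, with any gene that is among at most 5 on its side of the threshold. Dox against vehicle in iMyoD1 at 48 h is an exception, with 1 gene named at each end of the range. Some further genes were named after their values were seen: Incenp, Racgap1, Bub1 and Hmmr with their library values at 48 h, Cdk1 in the fractions and Mki67 in the myoblast-enriched comparison with whole cultures. Replicates were biological replicates per the labels, and 46 pairs of replicate libraries differed by more than sampling noise (chi-square per gene from 3.04 to 410). Depth limits precision only for the lowest levels, and counting error was not modelled apart from the tests.

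Deviations of same-numbered replicates correlated above 0.1 in all 3 pairs for dox in iCdh23 (0.140 to 0.279) and dox in iMcam (0.412 to 0.520). The same held for the fractions with vehicle (0.209 to 0.542) and iCdh23 against iMcam with vehicle (0.143 to 0.607). The main tests did not pair replicates in these or any other comparisons. Pairing entered only through the replicate block among the alternatives. Alternatives were DESeq2 1.42.0, RLE or library-size scaling, no filter, all groups in 1 fit, a replicate block, no fold threshold and leaving out each library. Levels per base used GENCODE vM21 transcript lengths. Promoters were read from a RefSeq table of build GRCm38.p6, which had no entry for Foxm1, Ccna2, Cdc25c, Aurkb, Incenp, Spc24, Tpx2 and Kif20a.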

Additional observations from a re-analysis of the deposited data

Results flagged for a closer look

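Differences between dox effects passed an interaction test (edgeR, adjusted over all genes) in 6 comparisons. In iMyoD1 whole cultures the dox effect at 120 h was above that at 48 h for 44 of 44 mitosis genes, against 7.18% of all genes, and the effect at 48 h was below that at 24 h for 44 of 44, against 8.96%. The whole vehicle mean of 742 CPM at 120 h lay below the means of both vehicle fractions (2518 and 1108 CPM). The part of this in the 120 h result was not tested. At 48 h the effect in iCdh23 was below that in iMyoD1 for 44 of 44, against 12.1% of all genes, and below that in iMcam for 29 of 44, against 5.47%. The effect in iMcam was below that in iMyoD1 for 20 of 44, against 1.57%. At 120 h the effect in the myoblast-enriched fraction was below that in whole cultures for 5 of 44, against 2.43%. The counts of 29, 20 and 5 became 0 with all groups in 1 fit. The first was 19 without iCdh23 dox replicate 2, and the second was 10 to 12 without iMcam dox replicate 2, iMyoD1 dox replicate 2 or 3, or any 1 iMyoD1 vehicle replicate. The third was 36 without vehicle replicate 2 of the fraction and at most 2 without any other single library of a group with 3 libraries. No explanation for these differences was tested.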

How the results depend on the processing

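Counts of genes called are out of 44, and shares of all genes are given here only for counts without the fold threshold. Without the fold threshold the counts were 26 for dox at 0 h, 26 at 24 h, 27 at 120 h, 40 and 42 for 48 against 24 h with vehicle (higher, as were 38.4% of all genes) and dox (lower, 35.5%), 31 for 120 against 48 h with dox (13 higher and 18 lower, 34.9% and 38.6%) and 14 for the difference of dox effects between 24 and 0 h (13 higher and 1 lower, 13.3% and 20.7%). Library size alone gave 13 for dox at 120 h, 1 for the 24 against 0 h difference and 8 for the myoblast-enriched fraction against whole cultures. Without the filter the counts were 2 for dox at 120 h, 2 for dox in the myoblast-enriched fraction, 3 between fractions with vehicle, and 31 and 1 for the myoblast-enriched and myotube-enriched fractions against whole cultures. DESeq2 gave 8 between fractions with vehicle and 23 and 1 for these last comparisons. With all groups in 1 fit the counts were 19 for iCdh23 against iMcam with dox, 0 for the differences of dox effects between iCdh23 and iMcam, between iMcam and iMyoD1 and between the myoblast-enriched fraction and whole cultures, and 9 for the myotube-enriched fraction against whole cultures. Library size alone moved medians to −0.045 for dox at 0 h, 0.27 at 24 h, −1.64 at 48 h and 0.87 at 120 h, to −1.99 for 24 against 0 h and 0.73 for 48 against 24 h with vehicle, to −1.06 for 48 against 24 h with dox, and to 0.31 and −1.92 for the 24 against 0 h and 48 against 24 h differences. With all groups in 1 fit the median was −0.043 for dox at 24 h, where it changed sign, 0.76 for 48 against 24 h with vehicle and −1.66 for 24 against 0 h with dox. The last was −1.59 without the filter, and the 24 against 0 h difference had a median of 0.16 with DESeq2 or RLE. Genes without an opposite-strand partner, an alternative added after the data were seen, gave a median of −1.92 for 24 against 0 h with vehicle. The cause of these shifts was not tested.

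With the replicate block, the fractions with vehicle gave 43 calls in place of 0 and the myoblast-enriched fraction against whole cultures gave 2 in place of 5. The block moved no other count by over 1.5 times.

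Leaving out 1 library gave between 0 and 6 calls for dox in the myoblast-enriched fraction (median −1.28 to −0.26), 1 to 6 for dox at 120 h, 19 to 37 for the difference between iCdh23 and iMcam, 10 to 29 for that between iMcam and iMyoD1, 0 to 36 for the myoblast-enriched fraction against whole cultures (median −1.88 to −0.95) and 0 to 4 for the myotube-enriched fraction. Leaving out 1 library moved medians to between −0.18 and −0.15 for dox at 0 h, 0.80 and 0.84 for 48 against 24 h with vehicle, −1.47 and −0.51 between fractions with dox, 0.073 and 0.16 for the 24 against 0 h difference, −1.85 and −1.71 for the 48 against 24 h difference, −0.91 and −0.029 for dox in the myotube-enriched fraction, −1.83 and −0.88 between fractions with vehicle, −1.44 and −0.58 for the myotube-enriched fraction against whole cultures, and, with a change of sign, −0.23 and 0.72 for the difference of dox effects between fractions, −0.025 and 0.020 for dox at 24 h and −0.021 and 0.26 for iCdh23 against iMcam with vehicle.

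Of 2236 alternatives for 168 named results of single genes, 2097 kept direction and side, 83 lost the call, 22 gained it and 34 changed sign, in 12 results. With dox, leaving out 1 library gave ranges of −0.038 to 0.017 for Cdca3 at 0 h (0.10 with library size alone), −0.071 to 0.11 for Incenp and −0.12 to 0.12 for Ndc80 at 120 h (Ndc80 −0.0041 without the filter), and −0.47 to 0.58 for Birc5 and −0.66 to 0.66 for Spc24 in the myotube-enriched fraction. The range for Spc24 was −0.080 to 0.29 for 48 against 24 h with dox (−0.014 with library size alone) and −1.25 to 0.047 between fractions with dox. For the difference of dox effects between fractions the ranges were −1.08 to 0.56 for Bub1, −0.82 to 0.59 for Kif11 and −0.083 to 1.21 for Spc24. Against whole cultures in the myotube-enriched fraction they were −0.55 to 0.17 for Incenp and −0.80 to 0.48 for Spc24 (−0.13 with library size alone and −0.088 with the replicate block).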
